A study of Mus musculus with 12 samples.

Results

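The arrays labelled resting B were compared with the arrays labelled resting T, to separate genes of lymphocyte identity from genes of growth and division. The 6 arrays were chosen by their cell type label alone, 3 for each label, out of 12 arrays in the series. According to the labels, the 3 arrays of resting B held RNA of CD43-negative mature B cells and the 3 of resting T held RNA of B220-negative mature T cells. Both were magnetically isolated from spleens of C57Bl/6 x FVB mice and lysed in Trizol at day 0, with no culture. The study's methods describe the resting B cells as the cells left after removal with antibodies to TER-119, Gr-1, CD11b, CD138, CD43 and CD5, which bind T, plasma, myeloid and erythroid cells among others. For the T cells the labels give only the absence of B220. The remaining 6 arrays, 3 each of activated B and activated T, came from cells kept for 4 days in vitro. The activated B cells received aCD40 and IL4, and the activated T cells received aCD3, aCD28 and IL2. No source states if the 3 arrays that share a label stand for separate mice, so all errors and p-values measure only the spread between these arrays, which may be technical in part. Arrays are named by their label and number, as labelled resting B 1 to 3 and labelled resting T 4 to 6.

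Lineage genes ran against these labels. T cell genes were high and B cell genes were low on the arrays labelled resting B, and the arrays labelled resting T showed the opposite. The state labels of the T arrays also ran against the values. The median of 31 mitosis genes averaged 5.46 log2 on the arrays labelled activated T and 8.49 log2 on those labelled resting T, while it averaged 9.16 log2 on the arrays labelled activated B and 5.60 log2 on those labelled resting B. Over 376 genes of growth and division the medians were 7.87 log2 for labelled activated T and 9.0 log2 for labelled resting T, and 9.23 log2 for labelled activated B and 7.99 log2 for labelled resting B. The difference of labelled activated B minus labelled activated T is called the activated comparison, a comparison by label and not of a known activated state, and "at rest" likewise means the arrays labelled resting. Groups are therefore called by their labels throughout, and each direction is stated between labelled groups, as the array labelled resting B minus the array labelled resting T. Nothing here says which cells a tube contained. Values are log2 expression from RMA, a method that brings the probe intensities of all arrays to a common distribution, and a difference of 1 log2 is 2-fold. Olfactory receptor genes, which lymphocytes are not known to need, gave a background limit of 5.21 log2, the value under which 95% of 1027 such genes lay.

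Naive T and B lymphocytes circulate between blood, spleen and lymph nodes as small quiescent cells. T cells recognise peptides through a receptor whose signals pass through the CD3 chains, and B cells bind antigen through surface immunoglobulin coupled to CD79 and present its peptides on MHC class II. Once stimulated, both cell types enlarge, raise glycolysis, the synthesis of nucleotides and sterols and the making of ribosomes, and then replicate their DNA and divide. Such growth genes are shared by all dividing lymphocytes, so they say nothing of lineage, while the antigen receptor genes say little of growth.

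Arrays of the same label correlated at 0.992 to 0.994 over all genes, and arrays of different labels at 0.927 to 0.937. Xist, the RNA that silences an X chromosome in female cells, measured 4.00, 3.91 and 10.62 log2 on the arrays labelled resting B and 4.11, 10.89 and 10.79 log2 on those labelled resting T, so both groups mixed high and low arrays, and the arrays of a label were not all repeats of the same RNA. Of 19937 genes, 6991 (35.1%) had a Benjamini-Hochberg adjusted p under 0.05 in limma. These were 3207 genes (16.1%) higher and 3784 genes (19.0%) lower on the arrays labelled resting B. At least 2-fold differences were called for 1921 genes (9.64%), with 894 genes higher (4.48%) and 1027 genes lower (5.15%). The 3 arrays of either label did not overlap for 42.6% of all genes, with 19.7% higher and 22.9% lower on the arrays labelled resting B. The comparison of labelled activated B with labelled activated T, which shares no array with the resting one, called 8120 genes (40.7%). The activated comparison was used to sort the resting differences, since it also sets the labelled B cells against the labelled T cells.

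Both kinds of difference were present among the 1921 genes that differed at least 2-fold at rest. Of these, 576 (30%) differed in the same direction in the activated comparison, 1082 (56.3%) differed in the opposite direction with a difference between both comparisons that was itself called (interaction in limma), and 263 (13.7%) did neither. Among the 894 higher genes, 313 kept the direction and 419 had the opposite one. For the 1027 lower genes the numbers were 263 and 663. Over all genes, 42.7% were called in the interaction. In both comparisons, 6.77% were called with the same direction (3.55% higher and 3.22% lower on the arrays labelled resting B) and 19.0% with opposite directions (7.44% and 11.5%).

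**Figure D1:**
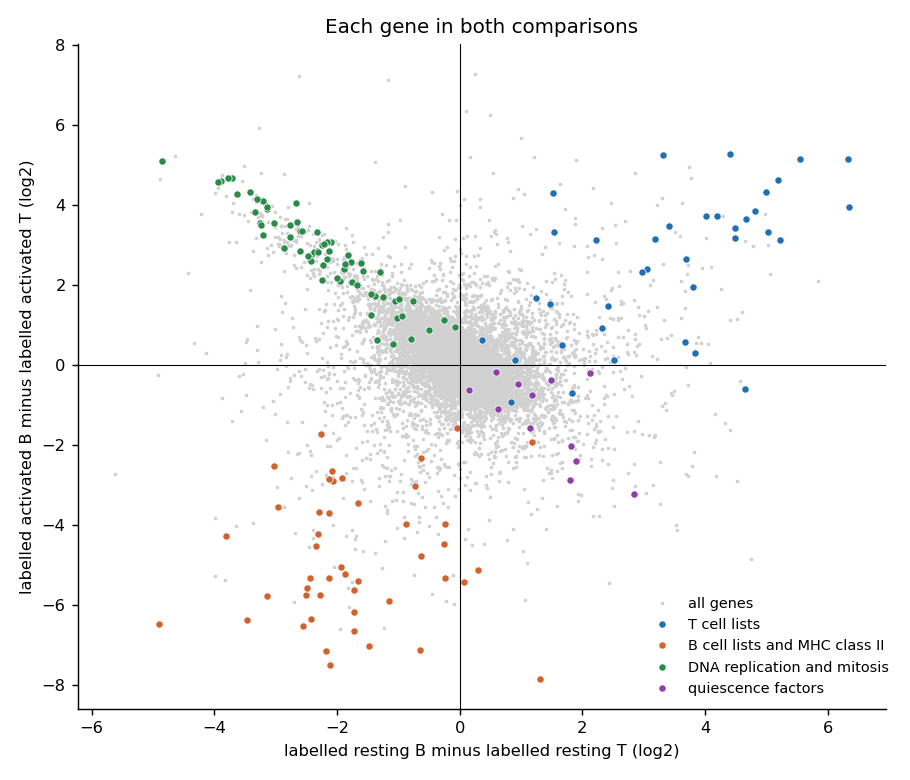
Each point is a gene, with the log2 difference of labelled resting B minus labelled resting T on the x axis and that of labelled activated B minus labelled activated T on the y axis. The 37 T cell genes lie mostly at the upper right and the B cell and MHC class II genes at the lower left, with 3.67 and -2.08 as the medians of the T and B lists on the x axis. Genes of DNA replication and mitosis lie at the upper left and the quiescence factors mostly at the lower right.

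T cell genes formed the top of the comparison. The T lists held 37 measured genes, of which 36 were higher on the arrays labelled resting B, where 16.1% of all genes were, and 0 were lower. Their median difference was 3.67 log2, against -0.00 over all genes. For 31 of the 37 the direction was the same in the activated comparison, and for 3 it was the opposite. On the arrays labelled resting T, 12 of the 37 averaged no more than the background limit, and on the arrays labelled resting B 0 did. Of all 19937 genes, 7987 did so on the arrays labelled resting T and 7853 on those labelled resting B. The 12 of 37 is thus no larger share than that of all genes.

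Cd5, whose protein was a target of the antibodies that the methods give for the resting B cells, measured 9.73, 9.71 and 9.80 log2 on the arrays labelled resting B, against 5.82, 5.46 and 5.88 log2 on those labelled resting T. Among surface proteins, all 13 measured were higher, with differences between 1.53 and 6.35 log2 and a median of 4.49. Il7r, the receptor chain for the survival factor IL-7, measured 10.92, 10.95 and 11.33 log2 on the arrays labelled resting B, against 4.50, 4.80 and 4.85 log2 on those labelled resting T (difference 6.35 ± 0.25 log2, SE, adjusted p = 5.81e-12 in limma). This was the largest positive difference of all genes that were called without overlap, and the resting T values lay below the background limit. Cd28, the costimulatory receptor that aCD28 engages, measured 9.83, 9.94 and 10.18 log2 on the arrays labelled resting B, against 5.07, 5.68 and 5.96 log2 on those labelled resting T. Cd6, a T cell adhesion receptor, had 9.20, 9.23 and 9.32 log2 on the arrays labelled resting B, against 5.17, 4.82 and 5.17 log2 on those labelled resting T. Neither gene overlapped between the groups.

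The coreceptors Cd4 and Cd8a, which mark helper and cytotoxic T cells, were both high on the arrays labelled resting B. Cd4 measured 9.43, 9.53 and 9.65 log2 there, against 5.15, 4.92 and 5.06 log2 on the arrays labelled resting T. Cd8a measured 10.86, 11.12 and 10.99 log2 on the arrays labelled resting B, against 5.16, 5.36 and 6.76 log2 on those labelled resting T. The labelled resting T 6 array was the highest of its group for Cd8a, and it was so for 18 of the 37 T genes (41.5% of all genes were highest on this array). Thy1 had the smallest difference of the surface list, with 9.76, 9.72 and 9.84 log2 on the arrays labelled resting B and 8.41, 8.34 and 7.99 log2 on those labelled resting T. Of the T cell genes at the surface it stood farthest above the background limit on the arrays labelled resting T.

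The signalling proteins behind the T cell receptor were higher in 15 of 15 cases, with a median of 3.67 log2. Zap70, the kinase that binds the phosphorylated CD3 chains, measured 8.61, 8.72 and 8.87 log2 on the arrays labelled resting B and 5.16, 5.40 and 5.37 log2 on those labelled resting T. Lat, the membrane adaptor that Zap70 phosphorylates, measured 10.79, 10.80 and 10.93 log2 on the arrays labelled resting B and 6.01, 6.07 and 5.99 log2 on those labelled resting T (difference 4.82 ± 0.17 log2, SE, adjusted p = 2.29e-12 in limma). The groups were tight and far apart for both. Txk, a Tec-family kinase, was the member that did not keep its direction. At rest it measured 10.11, 10.32 and 10.50 log2 on the arrays labelled resting B, against 5.28, 5.71 and 5.97 log2 on those labelled resting T, while in the activated comparison the means were 5.89 log2 on the arrays labelled activated B and 6.49 log2 on those labelled activated T (adjusted p = 0.0427 in limma).

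Transcription factors of the T lineage differed less, with 8 of 9 higher and a median of 1.84 log2. Gata3, the factor of T cell development and helper cells, measured 8.40, 8.41 and 8.60 log2 on the arrays labelled resting B and 4.74, 5.14 and 5.56 log2 on those labelled resting T. Bcl11b, which guards T cell commitment, measured 8.95, 8.59 and 8.73 log2 on the arrays labelled resting B and 5.86, 5.56 and 5.92 log2 on those labelled resting T. Neither overlapped. Runx3 was not called, with 7.92, 7.47 and 7.67 log2 on the arrays labelled resting B and 7.40, 7.59 and 6.96 log2 on those labelled resting T (adjusted p = 0.0645 in limma), and passed the threshold under 7 of the 23 alternatives. Ets1 and Runx1, factors that B cells also use, were higher at rest by 1.84 and 0.83 log2 and differed by -0.71 and -0.92 log2 in the activated comparison.

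**Figure D2:**
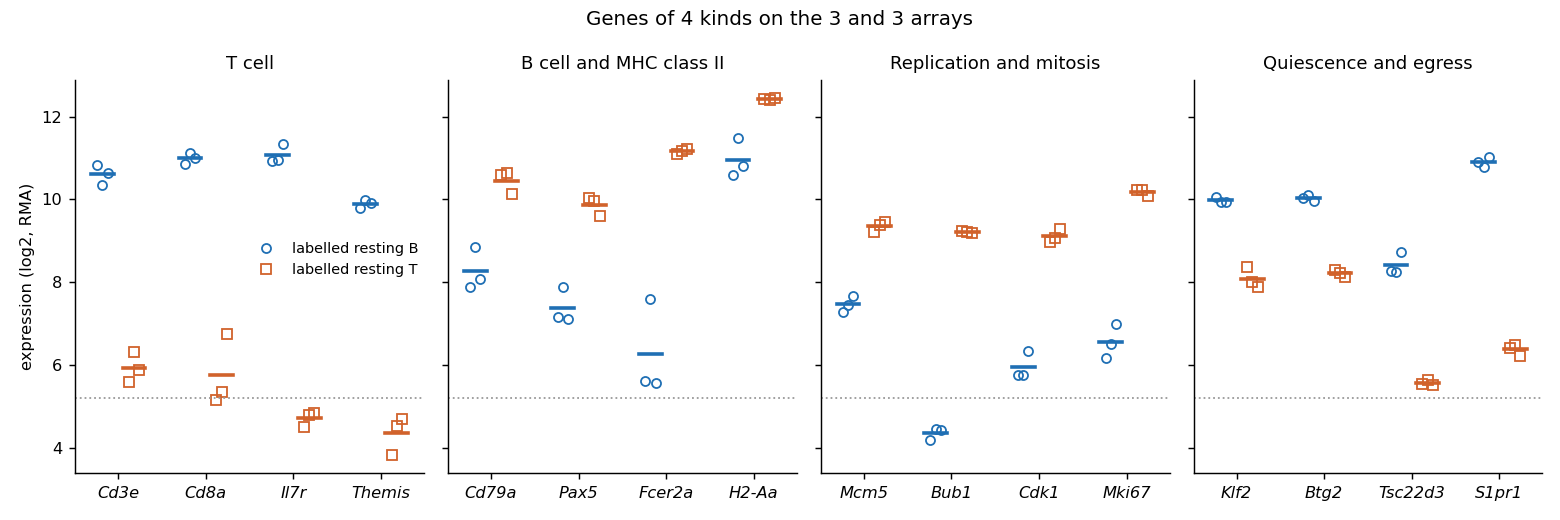
Log2 expression of 16 genes on each array, with circles for the 3 arrays labelled resting B and squares for the 3 labelled resting T, bars for the group means and a dotted line at the background limit of 5.21 log2. T cell genes and quiescence or egress genes are higher on the arrays labelled resting B, and B cell genes and division genes are lower, with no overlap between the groups for any of the 16.

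B cell genes were lower on the arrays labelled resting B, though not absent from them. The B lists held 39 measured genes, of which 30 were lower, where 19.0% of all genes were, and 2 were higher. The median difference was -2.08 log2 at rest and -5.04 log2 in the activated comparison. The direction was the same in both comparisons for 30 of the 39. On the arrays labelled resting B 0 of the 39 averaged no more than the background limit, while on the arrays labelled activated B 17 did. Of all 19937 genes, 7853 did so on the arrays labelled resting B and 8064 on those labelled activated B. The 17 of 39 is thus near the share of all genes. In bulk RNA, fewer cells of a type and less RNA per cell cannot be told apart.

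The labelled resting B 2 array stood apart for these genes. It was the highest of its group for 38 of the 39 B genes and for 7 of 7 MHC class II genes, while 30.9% of all genes were highest on it. The median of the B cell surface list was 6.92, 8.08 and 7.49 log2 on the arrays labelled resting B, against 9.17, 9.19 and 8.91 log2 on those labelled resting T. Without the labelled resting B 2 array, 33 of the 39 genes were lower and the median difference was -2.29 log2. The spread followed, since the median SD over the 39 genes was 0.472 log2 on the arrays labelled resting B and 0.146 log2 on those labelled resting T, against 0.12 and 0.128 log2 over all genes.

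Cd79a, the signalling chain of the B cell receptor, measured 7.88, 8.85 and 8.09 log2 on the arrays labelled resting B, against 10.58, 10.64 and 10.13 log2 on those labelled resting T (difference -2.18 ± 0.24 log2, SE, adjusted p = 1.12e-06 in limma). Ms4a1, which encodes CD20, measured 7.78, 9.47 and 8.32 log2 on the arrays labelled resting B and 10.65, 10.59 and 10.68 log2 on those labelled resting T. Every array labelled resting T lay above every array labelled resting B for both. The largest difference of the B lists was that of Fcer2a, the low-affinity IgE receptor CD23 that IL-4 induces on B cells. It measured 5.62, 7.60 and 5.58 log2 on the arrays labelled resting B, against 11.09, 11.17 and 11.22 log2 on those labelled resting T (difference -4.89 ± 0.35 log2, SE, adjusted p = 7.65e-09 in limma), so that 2 of the 3 arrays labelled resting B lay near the background limit.

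Cr2, the complement receptor CD21, was higher on the arrays labelled resting B, the opposite of the list. It measured 6.85, 8.85 and 7.78 log2 there, against 6.57, 6.71 and 6.27 log2 on the arrays labelled resting T (difference 1.31 ± 0.33 log2, SE, adjusted p = 0.00467 in limma). The groups did not overlap, but their nearest arrays lay close together, and with an intensity trend and robust settings the adjusted p was 0.0509 in limma. In the activated comparison the arrays labelled activated B averaged 4.22 log2 and those labelled activated T 12.06 log2, the largest difference of the B lists in that comparison. Foxp1, a factor of B cell development that quiescent T cells also need, was the other higher member, with 9.78, 9.69 and 9.78 log2 on the arrays labelled resting B and 8.73, 8.58 and 8.39 log2 on those labelled resting T.

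B cell transcription factors were lower in 9 of 10 cases. Pax5, which maintains B cell identity, measured 7.15, 7.89 and 7.10 log2 on the arrays labelled resting B and 10.03, 9.97 and 9.61 log2 on those labelled resting T. Pou2af1, a coactivator needed for germinal centres, measured 6.50, 7.38 and 7.07 log2 on the arrays labelled resting B and 10.82, 10.87 and 10.67 log2 on those labelled resting T. Both were well separated between the groups. Signalling proteins were less uniform, with 8 of 13 lower. Blnk, the adaptor of the B cell receptor, differed by -2.50 log2 and the kinase Btk by -1.94 log2, while Syk, the kinase upstream of both, was not called at rest (difference -0.23 ± 0.21 log2, SE, adjusted p = 0.473 in limma) and differed by -5.32 log2 in the activated comparison.

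The 7 MHC class II genes were all lower on the arrays labelled resting B, with a median of -1.73 log2. H2-Aa, an alpha chain, measured 10.58, 11.48 and 10.81 log2 on the arrays labelled resting B and 12.44, 12.41 and 12.46 log2 on those labelled resting T. Ciita, the master activator of this gene group, measured 6.59, 7.11 and 6.39 log2 on the arrays labelled resting B and 9.06, 9.17 and 8.80 log2 on those labelled resting T. The class II levels on the arrays labelled resting B were thus lower than on the arrays labelled resting T but far above the background limit.

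Of 3 antibody genes 2 were lower on the arrays labelled resting B. Ighg3, a heavy chain of IgG, measured 5.07, 5.08 and 5.24 log2 on the arrays labelled resting B and 6.80, 6.92 and 6.92 log2 on those labelled resting T. Igha, the heavy chain of IgA, measured 8.82, 9.95 and 10.05 log2 on the arrays labelled resting B and 10.85, 10.56 and 11.07 log2 on those labelled resting T. Both were called without overlap. Ighm, the heavy chain of IgM, overlapped between the groups, with 8.45, 8.88 and 9.09 log2 on the arrays labelled resting B and 8.78, 9.26 and 8.97 log2 on those labelled resting T (adjusted p = 0.411 in limma). With the mean of all its probe sets it differed by -0.45 log2 (adjusted p = 0.0069 in limma). Of 6 plasma cell genes 2 were higher and 3 lower. Jchain, which joins IgM and IgA subunits in plasma cells, was higher, with 10.62, 11.13 and 11.16 log2 on the arrays labelled resting B and 7.44, 8.71 and 9.11 log2 on those labelled resting T. Irf4 and Xbp1, factors of the plasma cell programme that are also induced in activated lymphocytes, were lower on the arrays labelled resting B, with differences of -3.47 and -2.20 log2.

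Markers of other spleen cells were higher on the arrays labelled resting B. Of 71 measured markers of NK cells, macrophages, dendritic cells, neutrophils, erythroid cells, platelets and plasma cells, 49 were higher and 6 lower, with a median of 1.06 log2. Over all genes 16.1% were higher and 19.0% lower. Of 14 NK genes 13 were higher, with a median of 2.32 log2. Klrd1, an NK receptor chain that some T cells share, measured 8.80, 9.19 and 9.31 log2 on the arrays labelled resting B, against 3.94, 4.84 and 5.32 log2 on those labelled resting T. Ncr1, a receptor nearly restricted to NK cells, measured 7.13, 8.48 and 8.27 log2 on the arrays labelled resting B, against 4.94, 5.12 and 5.30 log2 on those labelled resting T. Both sets of resting T values were near or below the background limit. The labelled resting T 6 array was the highest of its group for 13 of the 14 NK genes, against 41.5% of all genes.

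Of 19 macrophage and monocyte genes 14 were higher on the arrays labelled resting B and 0 lower, with a median of 1.79 log2. The labelled resting B 2 array was the highest of its group for 17 of them, against 30.9% of all genes. Without this array the median was 1.58 log2. Slc40a1, the iron exporter of red pulp macrophages, measured 8.32, 9.59 and 7.90 log2 on the arrays labelled resting B, against 3.72, 4.09 and 3.75 log2 on those labelled resting T (difference 4.75 ± 0.35 log2, SE, adjusted p = 8.87e-09 in limma). Csf1r, the receptor for macrophage colony-stimulating factor, measured 7.72, 8.14 and 7.26 log2 on the arrays labelled resting B and 5.25, 5.20 and 5.43 log2 on those labelled resting T. The median of the list ranged between 6.64 and 7.58 log2 on the arrays labelled resting B and between 4.99 and 5.19 log2 on those labelled resting T, where 11 of the 19 genes averaged no more than the background limit. Of all 19937 genes, 7987 did so on the arrays labelled resting T. Among 9 dendritic cell genes 6 were higher and 2 lower. The median of this list lay between 6.02 and 6.44 log2 on the arrays labelled resting B and between 5.11 and 5.29 log2 on those labelled resting T. CD11b, the protein of Itgam, was a target of the antibodies that the methods give for the resting B cells, and Itgam was higher by 1.79 log2 on the arrays labelled resting B. The part of these cells in the other differences was not tested.

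**Figure D3:**
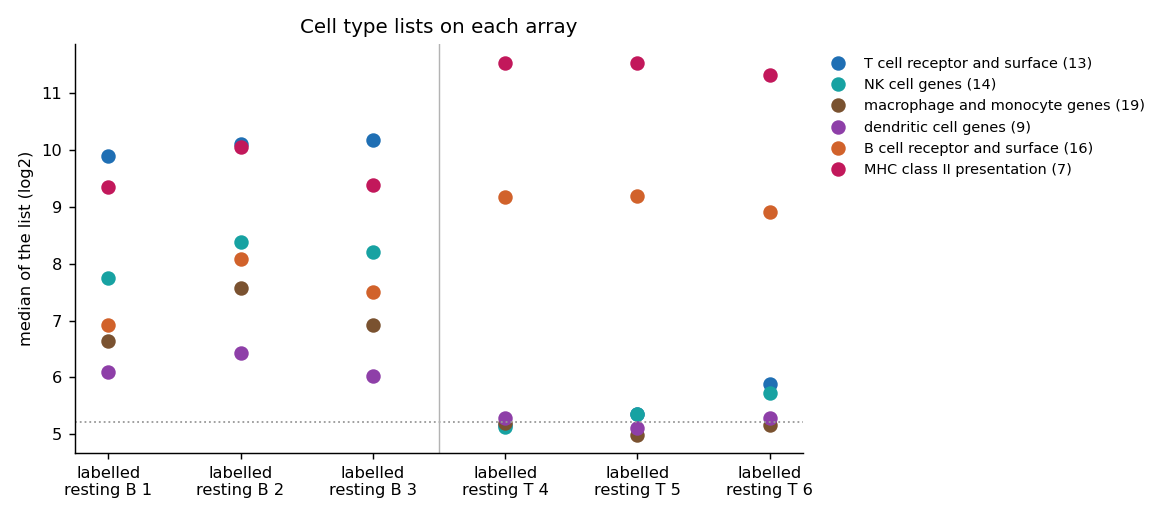
Median log2 expression of 6 cell type lists (y axis) on each of the 6 arrays (x axis), with the number of genes in brackets and a dotted line at the background limit of 5.21 log2. T cell and NK cell lists are higher on the arrays labelled resting B and B cell and MHC class II lists are lower. The labelled resting B 2 array is the highest of its group for the B cell, MHC class II, NK cell, macrophage and dendritic cell lists.

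A few markers of platelets and erythroid cells also differed. The platelet list had a median of only 0.58 log2, with 5 of 6 members called higher but just 1 by 2-fold or more. For the erythroid list the median was 0.34 log2, with 3 of 6 members called higher and 3 not called. In this list 3 members did not exceed the background limit in either resting group. Ppbp and Car1 had the largest differences of their lists and do not stand for the other members. Ppbp, a platelet chemokine, measured 8.53, 8.55 and 8.40 log2 on the arrays labelled resting B and 4.59, 4.72 and 4.98 log2 on those labelled resting T. Car1, a carbonic anhydrase of erythroid cells, measured 9.18, 9.40 and 10.18 log2 on the arrays labelled resting B and 5.27, 5.69 and 5.27 log2 on those labelled resting T. Of 11 neutrophil genes 6 were higher and 1 lower on the arrays labelled resting B, with a median of 0.41 log2. Most of this list was near the background, with 7 of 11 genes at or below the limit on the arrays labelled resting B. On those labelled resting T it was 10 of 11. Over all 19937 genes these counts were 7853 and 7987.

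Growth and division genes ran the other way from the T cell genes, and their direction in the activated comparison, where they were low on the arrays labelled activated T, was mostly the opposite of that at rest. Of 376 measured members of these lists, 304 were lower on the arrays labelled resting B and 14 higher, where 19.0% and 16.1% of all genes were. The median was -0.76 log2 at rest and 1.0 log2 in the activated comparison. In 294 of the 376 both comparisons were called in opposite directions and in the interaction, against 19.0% of all genes, and in 8 the direction was the same. In the lineage lists, 31 of 37 T genes and 30 of 39 B genes had the same direction, and 3 and 2 had opposite directions. Opposite directions were not confined to growth genes. Of the 71 markers of other spleen cells, 35 had opposite directions and 10 the same. For the 19 macrophage genes these counts were 12 and 1, and for the 14 NK genes 4 and 7. The macrophage median was 1.79 log2 at rest and -1.76 log2 in the activated comparison.

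**Figure D4:**
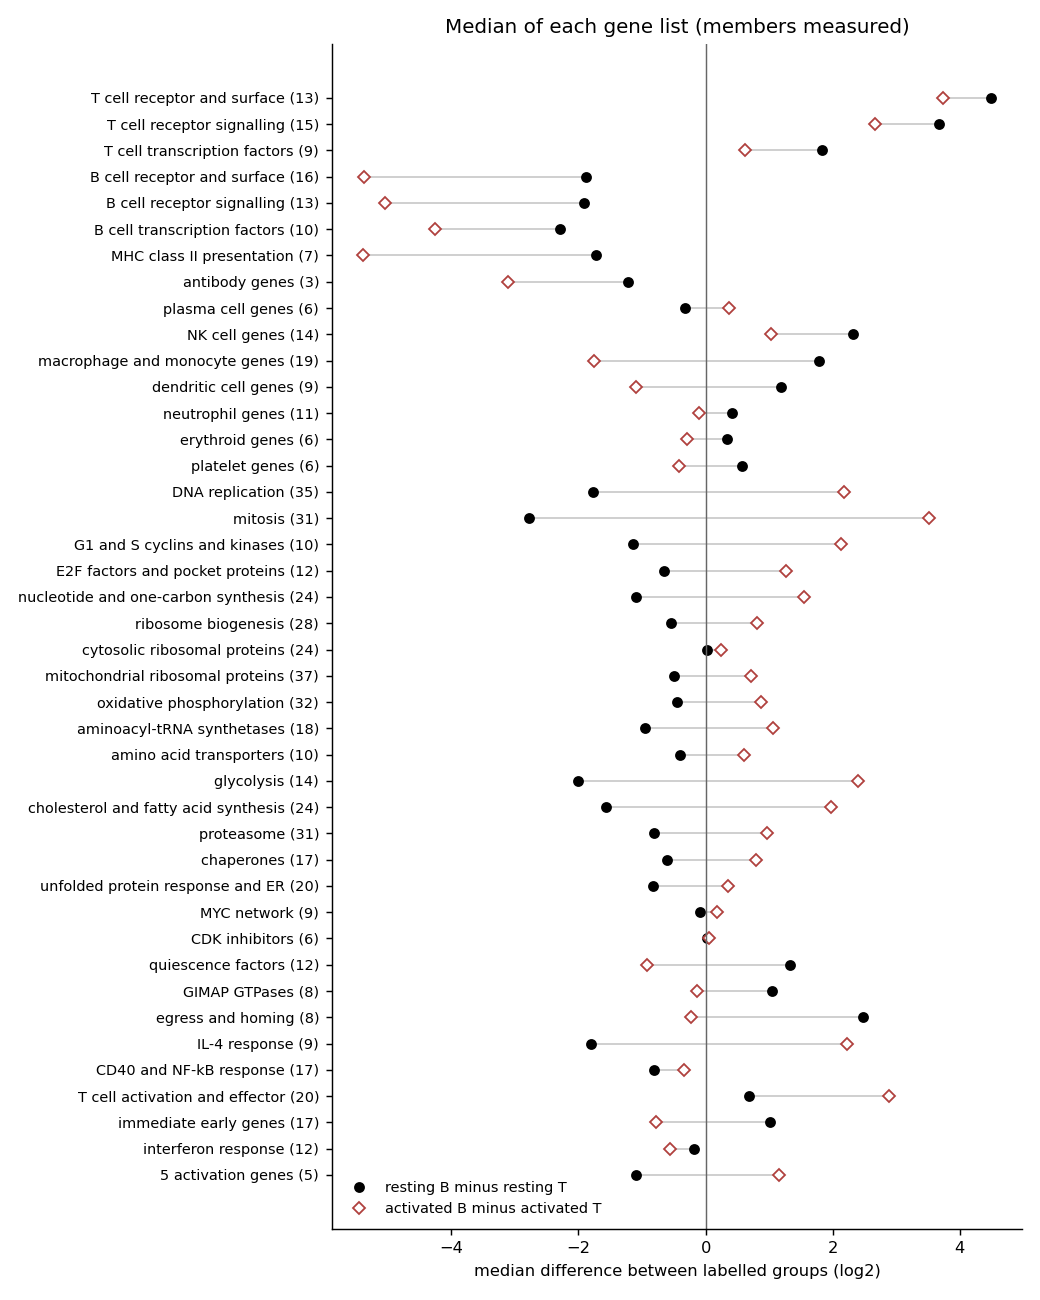
Median log2 difference of each list (y axis, members measured in brackets), with filled circles for labelled resting B minus labelled resting T and open diamonds for labelled activated B minus labelled activated T. The T and B lineage lists keep their side of 0 in both comparisons, while replication, mitosis, glycolysis and sterol lists lie below 0 at rest and above 0 in the activated comparison.

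Among the growth lists that of mitosis had the largest median difference. All 31 mitosis genes were lower on the arrays labelled resting B, with a median of -2.77 log2, and 10 of the 31 were at or below the background limit there, against 0 of 31 on the arrays labelled resting T. Of all 19937 genes, 7853 were at or below the limit on the arrays labelled resting B and 7987 on those labelled resting T. Bub1, a kinase of the spindle checkpoint, measured 4.20, 4.46 and 4.45 log2 on the arrays labelled resting B, against 9.23, 9.22 and 9.20 log2 on those labelled resting T (difference -4.85 ± 0.16 log2, SE, adjusted p = 7.52e-13 in limma). Mki67, the proliferation antigen, measured 6.17, 6.51 and 7.0 log2 on the arrays labelled resting B, against 10.24, 10.22 and 10.09 log2 on those labelled resting T. In the activated comparison the means of Bub1 were 9.40 log2 on the arrays labelled activated B and 4.31 log2 on those labelled activated T. The levels of Bub1 on the arrays labelled resting T were thus as high as on those labelled activated B to within 0.2 log2, and both other groups averaged below the background limit.

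The replication machinery was lower as well. Of 35 genes 33 were lower and 0 higher, with a median of -1.77 log2. Mcm5, a subunit of the replicative helicase, measured 7.27, 7.45 and 7.67 log2 on the arrays labelled resting B, against 9.20, 9.39 and 9.46 log2 on those labelled resting T. Uhrf1, which carries DNA methylation over to the new strand, measured 6.47, 6.44 and 6.64 log2 on the arrays labelled resting B and 9.60, 9.78 and 9.95 log2 on those labelled resting T. There was no overlap for either. Pcna, the sliding clamp, was high in both groups, with 10.19, 10.28 and 10.16 log2 on the arrays labelled resting B and 10.92, 10.91 and 11.08 log2 on those labelled resting T. The helicase factor Gins4 (-0.26 log2, adjusted p = 0.11 in limma) and the single-strand binding protein Rpa1 (-0.08 log2, adjusted p = 0.605 in limma) were not called.

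Promoter sequences set the replication and mitosis lists apart from each other. This describes the list members and would be the same whatever the arrays measured. The lists themselves were chosen with earlier results of these data known. E2F factors control S phase genes through short GC-rich words, and mitotic genes are known for a cell cycle genes homology region (CHR) that the DREAM and MuvB complexes bind. Promoters of 300 bases around the start of the gene, most of them before it, were taken from RefSeq (GRCm38.p6) and searched on both strands for TTTCCCGC, TTTGGCGC, TTTCGCGC and TTTGCCGC as E2F words, which can overlap each other. Of 28 replication genes with a promoter, 13 (46.4%) held such a word, against 1 of 26 mitosis genes (3.85%). Over all 15613 genes with a promoter it was 3.48%. Stretches of 80 bases are shown for 4 genes of replication that were lower on the arrays labelled resting B, with the words in capitals.
Mcm5 (chr8:75109320-75109399, plus strand): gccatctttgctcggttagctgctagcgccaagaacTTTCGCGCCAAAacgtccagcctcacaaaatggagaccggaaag
Mcm6 (chr1:128359772-128359851, minus strand): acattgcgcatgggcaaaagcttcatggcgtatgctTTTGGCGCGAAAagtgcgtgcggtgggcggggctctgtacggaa
Cdc6 (chr11:98907973-98908052, plus strand): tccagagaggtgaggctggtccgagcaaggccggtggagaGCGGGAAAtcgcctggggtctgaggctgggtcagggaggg
Orc1 (chr4:108579374-108579453, plus strand): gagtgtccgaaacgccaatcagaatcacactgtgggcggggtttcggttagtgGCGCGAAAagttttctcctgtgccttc

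The helicase subunit Mcm6 in this set measured 8.23, 8.50 and 8.62 log2 on the arrays labelled resting B and 10.53, 10.57 and 10.53 log2 on those labelled resting T. Cdc6, the loader of the helicase, measured 5.26, 5.44 and 6.18 log2 on the arrays labelled resting B and 7.65, 7.78 and 8.42 log2 on those labelled resting T. Orc1, the largest subunit of the origin recognition complex, measured 4.38, 4.02 and 4.37 log2 on the arrays labelled resting B and 6.20, 6.57 and 6.46 log2 on those labelled resting T. Only Orc1 was below the background limit on all 3 arrays labelled resting B. None of the 26 T cell or 30 B cell genes with a promoter held an E2F word there.

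CHR words (TTTGAA and TTCGAA) were found for 21 of 26 mitosis genes with a promoter (80.8%), against 21.4% of the replication genes. The shares were 26.9% and 26.7% of the T and B cell genes and 19.0% of all genes with a promoter. CCAAT, the word bound by NF-Y, was found for 76.9% of mitosis and 67.9% of replication genes and for 41.7% of all. The E-box CACGTG, a word that MYC and other factors bind, was found for 30.4% of 23 ribosome biogenesis genes and for 9.5% of all. Shown are 4 mitosis promoters with their CHR words in capitals.
Cdk1 (chr10:69352944-69353023, minus strand): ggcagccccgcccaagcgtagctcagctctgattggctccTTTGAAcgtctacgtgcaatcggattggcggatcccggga
Cdc20 (chr4:118437344-118437423, minus strand): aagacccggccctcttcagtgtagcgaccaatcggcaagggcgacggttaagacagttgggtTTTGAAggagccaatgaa
Top2a (chr11:99024190-99024269, minus strand): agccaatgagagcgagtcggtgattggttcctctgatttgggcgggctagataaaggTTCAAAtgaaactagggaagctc
Mki67 (chr7:135716456-135716535, minus strand): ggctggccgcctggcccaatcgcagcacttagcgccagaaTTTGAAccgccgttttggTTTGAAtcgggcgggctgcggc

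Of these genes, Cdk1, the mitotic kinase, measured 5.76, 5.77 and 6.35 log2 on the arrays labelled resting B and 8.97, 9.07 and 9.29 log2 on those labelled resting T. Cdc20, the activator of the anaphase-promoting complex, measured 6.47, 6.14 and 6.31 log2 on the arrays labelled resting B and 8.34, 8.74 and 8.47 log2 on those labelled resting T. Top2a, the topoisomerase that untangles chromosomes, measured 6.33, 6.78 and 7.02 log2 on the arrays labelled resting B and 10.37, 10.47 and 10.62 log2 on those labelled resting T. All 3 kept the arrays labelled resting B apart from those labelled resting T. A matching word is a description of the letters and not a measured binding site.

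**Figure D5:**
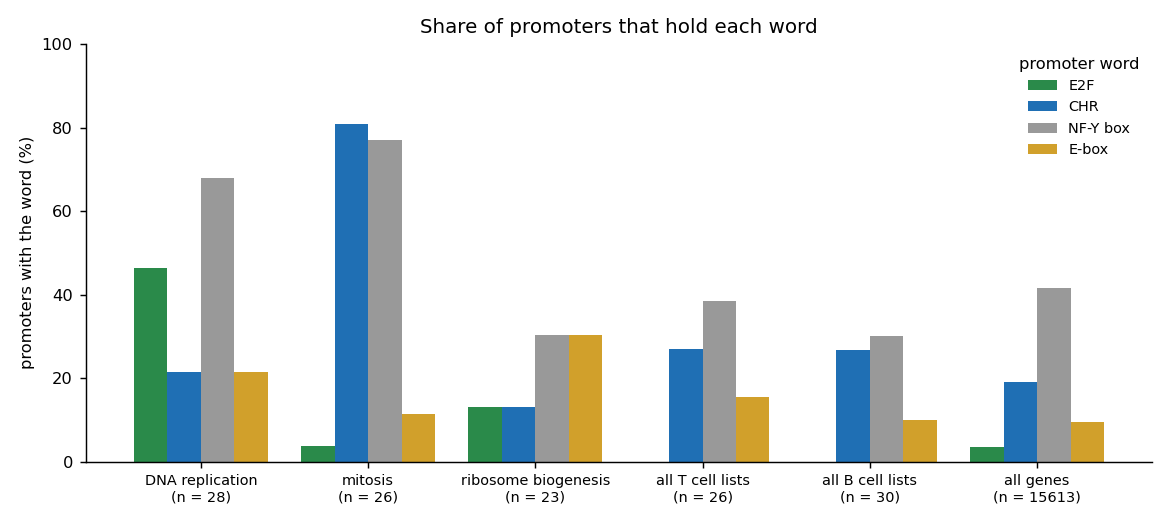
Percent of genes with a promoter (y axis, starting at 0) for which it holds each word on either strand, by gene list (x axis, number of such genes in brackets). E2F words stand out in replication genes (46.4%) and CHR words in mitosis genes (80.8%), against 3.48% and 19.0% of all genes with a promoter.

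The cyclins and their regulators did not move as a block. Of 10 G1 and S phase cyclins and kinases 8 were lower and 2 higher on the arrays labelled resting B. Ccna2, the cyclin of S phase and mitosis, measured 5.78, 6.22 and 6.47 log2 on the arrays labelled resting B and 9.67, 9.69 and 9.73 log2 on those labelled resting T. The 2 higher genes were Ccnd3 and Ccnd1, cyclins that act at the entry to the cycle, and the measurements of Ccnd3 were 8.35, 8.19 and 8.24 log2 on the arrays labelled resting B and 7.42, 7.64 and 7.39 log2 on those labelled resting T. Rbl2, the pocket protein p130 of non-dividing cells, was the member of the E2F list that was higher (difference 0.98 ± 0.11 log2, SE, adjusted p = 9.94e-07 in limma). The repressor E2f8, itself made in S phase, differed by -2.04 log2. Among CDK inhibitors Cdkn1b (p27) was higher by 1.23 log2, at 10.02 ± 0.08 log2 on the arrays labelled resting B and 8.80 ± 0.05 log2 on those labelled resting T (SD, n = 3 each), while Cdkn2c (p18) differed by -1.21 log2.

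Metabolic genes differed in the same direction as division genes. Glycolysis had 12 of 14 genes lower on the arrays labelled resting B and a median of -2.01 log2. Tpi1, the triose phosphate isomerase, measured 7.99, 8.04 and 8.18 log2 on the arrays labelled resting B, against 11.86, 11.70 and 11.57 log2 on those labelled resting T (difference -3.64 ± 0.10 log2, SE, adjusted p = 2.62e-13 in limma). Hk2, the inducible hexokinase, measured 5.70, 5.98 and 5.89 log2 on the arrays labelled resting B and 8.97, 8.88 and 9.07 log2 on those labelled resting T. The lactate exporter Slc16a3 measured 6.41, 6.49 and 6.29 log2 on the arrays labelled resting B and 9.63, 9.34 and 9.12 log2 on those labelled resting T. Hk1, the hexokinase of resting tissues, was not called (0.10 log2).

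Sterol and fatty acid synthesis had 24 of 24 genes lower, with a median of -1.57 log2. Idi1, an isomerase of the mevalonate pathway, measured 6.87, 7.39 and 7.07 log2 on the arrays labelled resting B and 10.13, 10.19 and 10.45 log2 on those labelled resting T. Sqle, which makes squalene epoxide, measured 6.44, 6.53 and 6.28 log2 on the arrays labelled resting B and 9.10, 9.17 and 9.07 log2 on those labelled resting T. The desaturase Scd2 measured 7.54, 7.84 and 7.82 log2 on the arrays labelled resting B and 11.12, 11.15 and 11.02 log2 on those labelled resting T. Of the 24 genes, 22 were called in the opposite direction in the activated comparison. The regulator Srebf2 was not called there (adjusted p = 0.109 in limma), and the desaturase Scd1 kept its direction, with -2.42 log2 at rest and -2.77 log2 in the activated comparison, for which the labelled resting B 2 array (8.15 log2) was again the highest of its group.

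Nucleotide and one-carbon synthesis had 22 of 24 genes lower and a median of -1.09 log2. Rrm2, the limiting subunit of ribonucleotide reductase, measured 6.68, 6.88 and 7.13 log2 on the arrays labelled resting B and 10.06, 10.10 and 10.24 log2 on those labelled resting T. The serine pathway enzyme Psat1 measured 7.09, 7.40 and 7.39 log2 on the arrays labelled resting B and 9.30, 9.47 and 9.72 log2 on those labelled resting T. Outside the lists, the asparagine synthetase Asns had one of the 15 largest negative differences, with 5.44, 5.97 and 6.48 log2 on the arrays labelled resting B and 9.60, 10.02 and 10.07 log2 on those labelled resting T. None of these overlapped. The 18 aminoacyl-tRNA synthetases, which charge tRNAs, were all lower, with differences between -1.50 and -0.35 log2, and of 10 amino acid transporters 8 were lower, led by Slc7a5 at -2.09 log2.

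Other parts of the growth machinery differed by less. Ribosome biogenesis had 25 of 28 genes lower with a median of -0.55 log2, and Npm1, the nucleolar histone chaperone, measured 10.10, 10.11 and 10.15 log2 on the arrays labelled resting B and 10.65, 10.66 and 11.26 log2 on those labelled resting T. Mitochondrial ribosomal proteins had 26 of 37 lower (median -0.49 log2), oxidative phosphorylation 23 of 32 (-0.45 log2), the proteasome 29 of 31 (-0.81 log2), chaperones 14 of 17 (-0.60 log2) and the unfolded protein response 16 of 20 (-0.82 log2). Cytosolic ribosomal proteins were mostly not called, with 4 of 24 higher, 2 lower and a median of 0.03 log2. The MYC network had 4 of 9 genes lower and 2 higher, with a median of -0.09 log2, and its member Mxd4, a repressor that competes with MYC, was higher by 1.03 log2.

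Quiescence genes formed the counterpart. Of 12 quiescence factors 11 were higher on the arrays labelled resting B and 0 lower, with a median of 1.33 log2 at rest and -0.92 log2 in the activated comparison. Klf2, which holds naive lymphocytes in quiescence and drives their homing receptors, measured 10.07, 9.93 and 9.95 log2 on the arrays labelled resting B, against 8.37, 8.01 and 7.89 log2 on those labelled resting T. Btg2, an antiproliferative partner of the deadenylase complex, measured 10.04, 10.11 and 9.95 log2 on the arrays labelled resting B and 8.30, 8.22 and 8.13 log2 on those labelled resting T. Tsc22d3, a glucocorticoid and FOXO target, measured 8.26, 8.24 and 8.73 log2 on the arrays labelled resting B and 5.55, 5.65 and 5.52 log2 on those labelled resting T. All 3 were separated between the groups and were lower on the arrays labelled activated B than on those labelled activated T, with differences of -2.39, -2.03 and -3.23 log2.

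Receptors for egress and homing were higher in 7 of 8 cases, with a median of 2.48 log2. In the activated comparison their median was -0.22 log2. Of the 8, 3 kept their direction there and 3 had the opposite one, so they did not move as the quiescence factors did. S1pr1, the sphingosine phosphate receptor through which lymphocytes leave lymphoid organs, measured 10.91, 10.78 and 11.03 log2 on the arrays labelled resting B, against 6.42, 6.48 and 6.23 log2 on those labelled resting T (difference 4.53 ± 0.10 log2, SE, adjusted p = 3.97e-14 in limma). Ccr7, the chemokine receptor for lymph node entry, measured 10.10, 10.20 and 10.36 log2 on the arrays labelled resting B and 8.15, 8.26 and 8.18 log2 on those labelled resting T. The integrin chain Itgb7 differed by 4.05 log2 and Itga4 by 3.26 log2. Cxcr4 was not called and overlapped between the groups, with 10.16, 10.34 and 10.21 log2 on the arrays labelled resting B and 9.98, 10.16 and 10.01 log2 on those labelled resting T. The GIMAP GTPases, survival factors of lymphocytes, were higher in 8 of 8 cases with a median of 1.05 log2, led by Gimap3 at 1.59 log2. Their median in the activated comparison was -0.13 log2, with 3 of the 8 in the same direction and 4 in the opposite one.

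Immediate early genes, which respond within minutes to stimulation or handling of cells, were mostly higher on the arrays labelled resting B, with 12 of 17 higher and 2 lower. Fos measured 8.64, 9.0 and 8.56 log2 on the arrays labelled resting B, against 5.53, 5.36 and 5.52 log2 on those labelled resting T. The phosphatase gene Dusp1 measured 10.25, 10.47 and 10.28 log2 on the arrays labelled resting B and 6.69, 6.67 and 6.57 log2 on those labelled resting T. Egr2 ran the other way, with 6.48, 6.60 and 6.25 log2 on the arrays labelled resting B and 9.10, 8.96 and 8.72 log2 on those labelled resting T. The heat shock gene Hspa1a had wide values on the arrays labelled resting B, at 10.13, 10.61 and 8.46 log2, against 6.34, 6.02 and 6.26 log2 on those labelled resting T.

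Genes of the cytokine and receptor stimuli used in the cultures were examined, although the resting cells were labelled as uncultured. Of 9 genes of the IL-4 response 8 were lower on the arrays labelled resting B, with a median of -1.81 log2. Socs2, a feedback inhibitor of cytokine signals, measured 6.26, 6.45 and 6.55 log2 on the arrays labelled resting B, against 11.43, 11.42 and 11.10 log2 on those labelled resting T (difference -4.89 ± 0.13 log2, SE, adjusted p = 2.1e-13 in limma). Nfil3, a basic leucine zipper factor induced by IL-4, measured 5.41, 5.74 and 6.02 log2 on the arrays labelled resting B and 10.54, 10.43 and 10.11 log2 on those labelled resting T. The chemokine Ccl22 measured 5.14, 4.62 and 4.62 log2 on the arrays labelled resting B and 9.31, 9.70 and 10.13 log2 on those labelled resting T. Ccl22 was not called in the activated comparison (adjusted p = 0.334 in limma), where both means lay under the background limit, while Socs2 and Nfil3 had differences of 4.65 and 5.21 log2 there.

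The CD40 and NF-kB list was mixed, with 10 of 17 lower and 3 higher. Cd83, a surface protein of activated B cells, measured 7.57, 8.16 and 7.66 log2 on the arrays labelled resting B and 11.58, 11.45 and 11.29 log2 on those labelled resting T. Rel, the NF-kB subunit of activated lymphocytes, measured 9.0, 9.17 and 9.04 log2 on the arrays labelled resting B and 10.96, 10.95 and 10.83 log2 on those labelled resting T. The chemokine Ccl3 was higher by 3.85 log2, with 9.89, 10.11 and 9.57 log2 on the arrays labelled resting B and 5.52, 6.13 and 6.36 log2 on those labelled resting T. These 3 genes had no overlap in their opposite directions.

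T cell activation and effector genes were higher in 11 of 20 cases and lower in 2. Icos, a costimulatory receptor, measured 8.40, 8.35 and 8.90 log2 on the arrays labelled resting B and 4.40, 5.04 and 4.99 log2 on those labelled resting T. The 2 lower genes were Gzmb and Il2ra. Gzmb, a protease of cytotoxic granules, measured 6.45, 7.02 and 6.92 log2 on the arrays labelled resting B and 8.50, 9.25 and 10.47 log2 on those labelled resting T, with labelled resting T 6 again the highest of its group. Il2ra, the inducible IL-2 receptor chain, measured 7.29, 7.31 and 7.20 log2 on the arrays labelled resting B and 8.17, 8.55 and 8.57 log2 on those labelled resting T. In the activated comparison both were higher on the arrays labelled activated B than on those labelled activated T, by 7.23 and 7.13 log2.

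The measured genes that the study used as signs of B cell activation were all lower on the arrays labelled resting B. Il5ra, a chain of the IL-5 receptor, had the largest negative difference of all genes called without overlap. It measured 5.04, 5.27 and 5.19 log2 on the arrays labelled resting B, against 10.85, 10.74 and 10.77 log2 on those labelled resting T (difference -5.62 ± 0.13 log2, SE, adjusted p = 5.03e-14 in limma). Cd44, an adhesion receptor of activated and memory lymphocytes, measured 7.58, 7.81 and 7.77 log2 on the arrays labelled resting B and 9.82, 9.92 and 9.83 log2 on those labelled resting T. Myc, the growth regulator, averaged 9.03 ± 0.03 log2 on the arrays labelled resting B and 9.99 ± 0.10 log2 on those labelled resting T (SD, n = 3 each). Fas differed by -1.10 log2 and the cyclin Ccnd2 by -0.42 log2 (adjusted p = 0.0126 in limma, and 0.0594 without labelled resting B 2). Cd44 was not called in the activated comparison, Il5ra kept its direction, and Fas, Myc and Ccnd2 had positive differences there.

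The arrays also carry probe sets for 300 microRNA genes, of which 27 were higher and 14 lower on the arrays labelled resting B, where 16.1% and 19.0% of all genes were. Which form of the transcript these probe sets read was not tested, so the values cannot be taken as levels of the mature microRNAs. The following 3 genes were chosen after their values were seen, as the lower gene with an at least 2-fold difference and a pair of higher ones from the same host gene. Their mature sequences from RefSeq (GRCm38.p6) are shown with the seed, bases 2 to 8, in capitals.
mmu-miR-155-5p (chr16:84714143-84714165, plus strand): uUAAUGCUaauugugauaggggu
mmu-miR-15b-5p (chr3:69009775-69009796, plus strand): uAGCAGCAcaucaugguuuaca
mmu-miR-16-5p (chr3:69009918-69009939, plus strand): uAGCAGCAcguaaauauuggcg

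The gene of miR-155, a microRNA known for its induction in activated lymphocytes, measured 5.48, 5.32 and 5.33 log2 on the arrays labelled resting B, against 8.08, 8.49 and 8.72 log2 on those labelled resting T (Mir155, difference -3.05 ± 0.17 log2, SE, adjusted p = 2.42e-10 in limma). In the activated comparison its difference was 2.82 log2, so its direction differed between the comparisons as that of the division genes did. Mir15b and Mir16-2, whose main products share the seed AGCAGCA, lie within the gene Smc4. Mir15b measured 7.38, 7.47 and 7.55 log2 on the arrays labelled resting B and 5.36, 5.69 and 5.64 log2 on those labelled resting T. Mir16-2 measured 6.03, 6.24 and 6.52 log2 on the arrays labelled resting B and 4.41, 4.81 and 4.74 log2 on those labelled resting T, which is under the background limit. Both were higher on every array labelled resting B, by 1.91 and 1.61 log2, while Smc4, a condensin subunit, differed by 0.35 log2 (adjusted p = 0.0168 in limma, and 0.103 without labelled resting B 3).

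Genes outside the lists completed the ends of the ranking. Among the 15 largest positive differences were Ms4a4b (5.84 log2), the adhesion receptor Cd226 (5.06 log2) and the chemokine receptor Cxcr6 (4.78 log2), which are genes of T and NK cells. Cxcr6 measured 9.10, 9.74 and 9.92 log2 on the arrays labelled resting B and 4.36, 4.73 and 5.34 log2 on those labelled resting T. All 3 had positive differences in the activated comparison too. Among the 15 largest negative ones were Aldoc (-4.43 log2), an aldolase, Bnip3 (-4.21 log2), a mitophagy receptor induced by low oxygen, and the nucleic acid receptor Tlr7 (-4.00 log2). Bnip3 measured 6.46, 6.44 and 6.13 log2 on the arrays labelled resting B and 10.72, 10.60 and 10.35 log2 on those labelled resting T. Aldoc and Bnip3 had positive differences in the activated comparison and Tlr7 a negative one (-3.83 log2).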

How the data were processed

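RNA of labelled resting and activated B and T cells was labelled with biotin and hybridised to Affymetrix mouse gene arrays. The authors deposited log2 values on every probe set, made with RMA according to the submitters' notes. Its version is not given in the sources used here, nor is any filter. All 12 arrays entered the fit and each column matched an array by its name. Probe sets numbered 34760, of which 21640 had a single gene symbol, 1321 had several and 11799 had no gene in the table used here. Only those with a single symbol were named, and where a gene had more than 1 probe set (954 genes) the brightest was kept, which left 19937 genes.

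limma 3.58.1 in R 4.3.3 (lmFit, contrasts.fit and eBayes) fitted 4 group means, with the variance of a gene shared between groups (8 residual degrees of freedom, prior of 7.80). Labelled resting B minus labelled resting T, the same for the activated arrays, and the difference of both (interaction) were tested, at a threshold of 0.05 after Benjamini-Hochberg adjustment over the 19937 genes. The number of arrays limits the precision. RMA values are compressed at low and high signal, so that differences are understated there, and a shift of most genes in the same direction would not be seen. The members and lists were chosen with earlier results of these data known. Lists are described by counts and medians only. In simulated data for the resting comparison over 19937 genes, the fit called 72% of 50 changes of 0.5 log2, 100% of 100 changes of 1 log2 and 100% of 50 changes of 2 log2, with 11 false calls among 197. The noise was normal, independent between genes and arrays and equal in all 4 groups, and only these genes changed. On the real arrays 35.1% of genes were called, and the median SD of the B genes was 0.472 log2 on the arrays labelled resting B. On those labelled resting T it was 0.146 log2. The simulated rates therefore check the fit and do not give the error rates of the real comparison.

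Promoters and mature microRNAs came from RefSeq (GRCm38.p6). A promoter was found for 15613 of the genes. Genes were named by rank (the 15 largest differences each way without overlap, and the 10 largest each way that kept or changed sign in the activated comparison), as the first 4 and the 3 most different members of each list, or as activation genes of the study. Further list members, microRNAs and Smc4 were named after their values were seen, and not every gene under the rule is printed. Replicate numbers 1 to 3 belong to labelled B arrays and 4 to 6 to labelled T arrays, so no number is shared between the resting groups. Alternatives were median or 75th percentile centring, quantile normalization, both background filters, other probe set rules, only the resting arrays, trend and robust settings, array weights, the replicate block and leaving out each array. An Xist covariate was added after seeing the data. No pair of arrays was a copy, as at most 0.069% of values were identical. Plots were drawn with matplotlib 3.10.9 and tables made with pandas 2.3.3 (Python 3.11.15).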

Additional observations from a re-analysis of the deposited data

Results flagged for a closer look

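The difference between labelled B and labelled T arrays was itself different between the arrays labelled resting and those labelled activated for 8518 genes (interaction in limma, Benjamini-Hochberg adjusted p under 0.05). Of these, 3782 were called in opposite directions in both comparisons. These were ranked by the smaller of their absolute resting and activated differences. Among those higher on the arrays labelled resting B, the 10 that ranked first, with the resting minus the activated difference in log2, were Slc40a1 (9.59), Rgs2 (7.68), Hspa1a (7.53), S1pr1 (7.43), Fos (6.74), Ppbp (6.51), Rasgrp2 (6.24), Vcam1 (6.16), Tsc22d3 (6.07) and Snord14e (5.88). Rgs2, a regulator of G protein signalling, averaged 8.43 log2 on the arrays labelled resting B and 4.88 log2 on those labelled resting T, while in the activated comparison it averaged 4.70 log2 on the arrays labelled activated B and 8.83 log2 on those labelled activated T. Among those lower on the arrays labelled resting B, the 10 that ranked first were Bub1 (-9.95), Nfil3 (-9.85), Socs2 (-9.54), Ncapg (-8.62), Tpx2 (-8.5), Nuf2 (-8.47), Asns (-8.35), Shcbp1 (-8.28), Cep55 (-8.03) and Bnip3 (-7.99), of which Bub1, Ncapg, Tpx2, Nuf2, Shcbp1 and Cep55 act in mitosis or cytokinesis. Groups of 3 arrays were not tested for single outlying arrays.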

How the results depend on the processing

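The count of genes called at rest (6991) stayed between 6442 and 7207 under all alternatives except when every probe set was tested on its own (9800). Then 4884 probe sets were higher, 1500 of them at least 2-fold, and 13027 were called in the activated comparison and 13700 in the interaction, since more features were tested. Probe sets numbered 34760 and genes 19937, so these counts cannot be compared with the gene counts as a larger share called. Leaving out a resting array in turn, 6210 to 6372 of the reported genes were called again, 0 with the other sign. The median of the mitosis list lay between -3.04 and -2.68 log2 when each of the 12 arrays was left out in turn, the farthest from -2.77 without labelled resting B 3. With quantile normalization the median of all growth lists was -0.65, against -0.76. The B lists had 1 higher member instead of 2 with an intensity trend and robust settings, where Cr2 was lost. Of 114 printed genes called as reported, Cr2, Ccnd2 and Smc4 missed the threshold under at least 1 of 23 alternatives, and 0 changed direction. No paired analysis was possible because the resting groups share no replicate number. A random replicate block called 6990 genes, and a fixed replicate block called 8416 genes in the interaction, against 8518. Same-numbered resting and activated arrays correlated at -0.059 to 0.252 in their deviations. Neither block moved a count by over 1.5 times. With Xist as a covariate 6713 genes were called. The share of calls that were higher was 45.9%, and between 42.9% and 52.2% under other scalings, under which the median of all genes lay between -0.03 and 0.054 log2, against -0.003 as reported. Arrays have no depth, so genes near the background limit have only bounded levels.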
